A study of Homo sapiens with 12 samples.

Results

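The red cell membrane and carbonic anhydrase genes are 8 genes of the erythroid programme, SLC4A1, EPB42, ANK1, SPTB, GYPB, RHAG, CA1 and CA2, which were followed by name through every library. They were taken by gene name from a table of 61541 Ensembl genes. All 8 are among the 15478 genes with at least 1 TPM (transcript abundance per length, scaled so that every library has the same total) in at least 3 libraries, which were the genes tested. RNA sequencing was done on K562 cells, a chronic myeloid leukemia line that carries the BCR::ABL1 fusion kinase and can be pushed towards red cell features. The cells were kept for 12 h with 0.5 µM imatinib + 25 µM MLN4924, with 0.5 µM imatinib, with 25 µM MLN4924 or without either drug (control), with 3 libraries for each of the 4 groups, 12 together. Imatinib inhibits the ABL1 kinase, and MLN4924 inhibits the enzyme that activates the ubiquitin-like protein NEDD8, so the question put by the design is how far the response to imatinib depends on neddylation. The control cells are the same line, so every group carries the fusion kinase, and the cells are a leukemia line and not primary red cell precursors. Whether the 3 libraries of a group were separate cultures is not stated, and p-values then reflect no more than the spread among the libraries.

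The red cell membrane is held by a mesh of spectrin tetramers, which is tied to the lipid bilayer through ankyrin and protein 4.2 to band 3, and through another junction to glycophorins. Band 3 also exchanges chloride for bicarbonate, and the carbonic anhydrases inside the cell interconvert carbon dioxide and bicarbonate, so the anion exchanger and the enzymes work on the same substrate. Loss of band 3, protein 4.2, ankyrin or spectrin is known to give spherocytic anemias.

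The members lie on 6 chromosomes in the GENCODE 44 annotation of GRCh38. SLC4A1 (band 3, ENSG00000004939) is at chr17:44248390-44268141, EPB42 (protein 4.2, ENSG00000166947) is at chr15:43197227-43221018, and ANK1 (ankyrin-1, ENSG00000029534) is at chr8:41653220-41896741. SPTB (erythroid beta-spectrin, ENSG00000070182) is at chr14:64746283-64879907, GYPB (glycophorin B, ENSG00000250361) is at chr4:143996104-144019380, and RHAG (the Rh-associated glycoprotein, ENSG00000112077) is at chr6:49605175-49636839. CA1 (ENSG00000133742) is at chr8:85327608-85379014 and CA2 (ENSG00000104267) is at chr8:85463968-85481493. All are on the minus strand except CA2. CA1 and CA2 are neighbours with CA3 between them, and CA1 overlaps the oppositely oriented CA3 by 5.6 kb. Whether the counting used strand is not given in the sources used here, and CA3 itself was listed at 0.26 to 0.83 TPM in the 12 libraries, under the filter.

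GYPB is the member whose level is least certain. Of the 675 words of 31 bases in its annotated transcripts, 35.7% also occur in another gene, among them 17.33% in GYPE, so the split of reads among the glycophorins rests on how the authors assigned them. EPB42 shared 14.74% of its words with ENSG00000285117, an annotated gene with no symbol, and SLC4A1 shared 3.01% with other genes. In SPTB the share was 0.02%, and ANK1, RHAG, CA1 and CA2 shared no word with another gene.

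The promoters shown here are those of the 4 members with a window in the table, all of them higher with imatinib and lower with the combination than with imatinib, though by very different amounts, and they are shown for a letter pattern that erythroid genes often carry near their start. RefSeq windows of 250 bases before to 50 bases after a gene's start (GRCh38.p14, minus strand, written 5′ to 3′ along the gene) were used for EPB42, SPTB, GYPB and RHAG. Capitals mark a GATA-factor motif (AGATAA or AGATAG, and the same words with T as their first letter) or a CACCC box (CACCC) on either strand. The windows are EPB42 at chr15:43220969-43221268, SPTB at chr14:64879858-64880157, GYPB at chr4:144019331-144019630 and RHAG at chr6:49636790-49637089.
EPB42: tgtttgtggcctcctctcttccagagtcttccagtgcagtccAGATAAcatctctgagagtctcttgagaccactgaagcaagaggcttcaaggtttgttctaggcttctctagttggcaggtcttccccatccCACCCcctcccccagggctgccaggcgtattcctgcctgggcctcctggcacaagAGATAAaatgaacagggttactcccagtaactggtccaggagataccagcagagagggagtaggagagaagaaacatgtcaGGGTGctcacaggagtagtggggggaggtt
SPTB: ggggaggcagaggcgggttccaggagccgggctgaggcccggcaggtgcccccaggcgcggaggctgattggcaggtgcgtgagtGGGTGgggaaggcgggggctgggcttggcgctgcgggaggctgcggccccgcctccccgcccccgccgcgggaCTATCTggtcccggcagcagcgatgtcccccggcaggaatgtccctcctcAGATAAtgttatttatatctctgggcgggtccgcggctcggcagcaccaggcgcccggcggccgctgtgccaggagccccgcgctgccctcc
GYPB: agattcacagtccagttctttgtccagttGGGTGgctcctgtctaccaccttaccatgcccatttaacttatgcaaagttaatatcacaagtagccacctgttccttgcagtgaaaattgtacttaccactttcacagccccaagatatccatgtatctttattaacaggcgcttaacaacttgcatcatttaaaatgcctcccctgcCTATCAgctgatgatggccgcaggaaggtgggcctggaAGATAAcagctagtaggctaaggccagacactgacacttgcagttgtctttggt
RHAG: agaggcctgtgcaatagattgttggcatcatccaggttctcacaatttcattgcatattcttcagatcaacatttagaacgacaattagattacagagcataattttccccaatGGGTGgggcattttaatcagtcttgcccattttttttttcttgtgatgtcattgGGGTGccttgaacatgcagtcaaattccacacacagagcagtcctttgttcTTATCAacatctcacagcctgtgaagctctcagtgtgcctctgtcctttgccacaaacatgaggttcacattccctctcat
A GATA-factor motif was present in each of the 4 windows and in 24.97% of all 35116 RefSeq windows of the same length, and a CACCC box was present in each of the 4 and in 59.87% of all windows. Positions below are the first base of a match counted from the start of the gene, which is +1. EPB42 held the GATA-factor motif at -208 and -61, SPTB at -92 and -42, GYPB at -42 and -4, and RHAG at -31. The SPTB window also held a TATA box (TATAAA) on the other strand at -31, a motif found in 11.53% of all windows. An E-box (CANNTG) was found in the SPTB and GYPB windows and in 68.68% of all windows, and the one at -38 in GYPB overlaps the GATA-factor motif at -42. RefSeq gives a further SPTB start, whose window held no GATA-factor motif. It also gives a further GYPB start a little downstream, whose window held both GATA-factor motifs of GYPB but no CACCC box. These matches are descriptions of letters, and no binding was measured.

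The libraries are labelled as K562 cells, and of the marker lists the erythroid one had the highest sum in every library. The identity of the line was not tested. The summed level of 9 erythroid markers was 15551 to 22147 TPM with imatinib + MLN4924, 40000 to 54709 TPM with imatinib, 13335 to 15597 TPM with MLN4924 and 15182 to 15674 TPM in control. Of the 8 megakaryocyte markers, 4 or 5 averaged at least 1 TPM in a group, their sum was 88.4 to 92.6, 162 to 197, 34.0 to 44.6 and 83.1 to 161 TPM in the same 4 groups, and PF4 and PPBP were at 0 throughout. The 9 granulocyte and monocyte markers summed to 18.7 to 21.1 TPM with imatinib + MLN4924, 14.9 to 18.7 TPM with imatinib, 26.3 to 27.3 TPM with MLN4924 and 25.8 to 28.2 TPM in control, with ELANE at 0 throughout, and the 6 lymphoid markers summed to 4.0 TPM or less in every library. The 7 epithelial and fibroblast markers summed to 171 to 239 TPM over all libraries, with 2 of them, KRT19 and EPCAM, averaging at least 1 TPM in each group. Mitochondrially encoded genes held 14.9 to 15.7% of the TPM with imatinib + MLN4924, 17.4 to 18.2% with imatinib, 12.7 to 13.8% with MLN4924 and 12.8 to 13.6% in control. Read numbers cannot be recovered from TPM, so sequencing depth is unknown here and counting error has no interval.

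SLC4A1, ANK1, SPTB, GYPB, RHAG and CA1 rose with imatinib and were lower when MLN4924 was given with it. EPB42 had the same pattern but passed the filter only through libraries given imatinib. Together the 8 genes held 735 to 895 TPM with imatinib + MLN4924, 1609 to 2132 TPM with imatinib, 605 to 636 TPM with MLN4924 and 713 to 769 TPM in control. The third imatinib library and the third imatinib + MLN4924 library were the lowest of their groups for SLC4A1, EPB42, ANK1, SPTB, GYPB, RHAG and CA1, and the highest for CA2. Whether those 2 libraries were made or sequenced apart from the others is not stated, and results are given without them where a call changes.

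**Figure D1:**
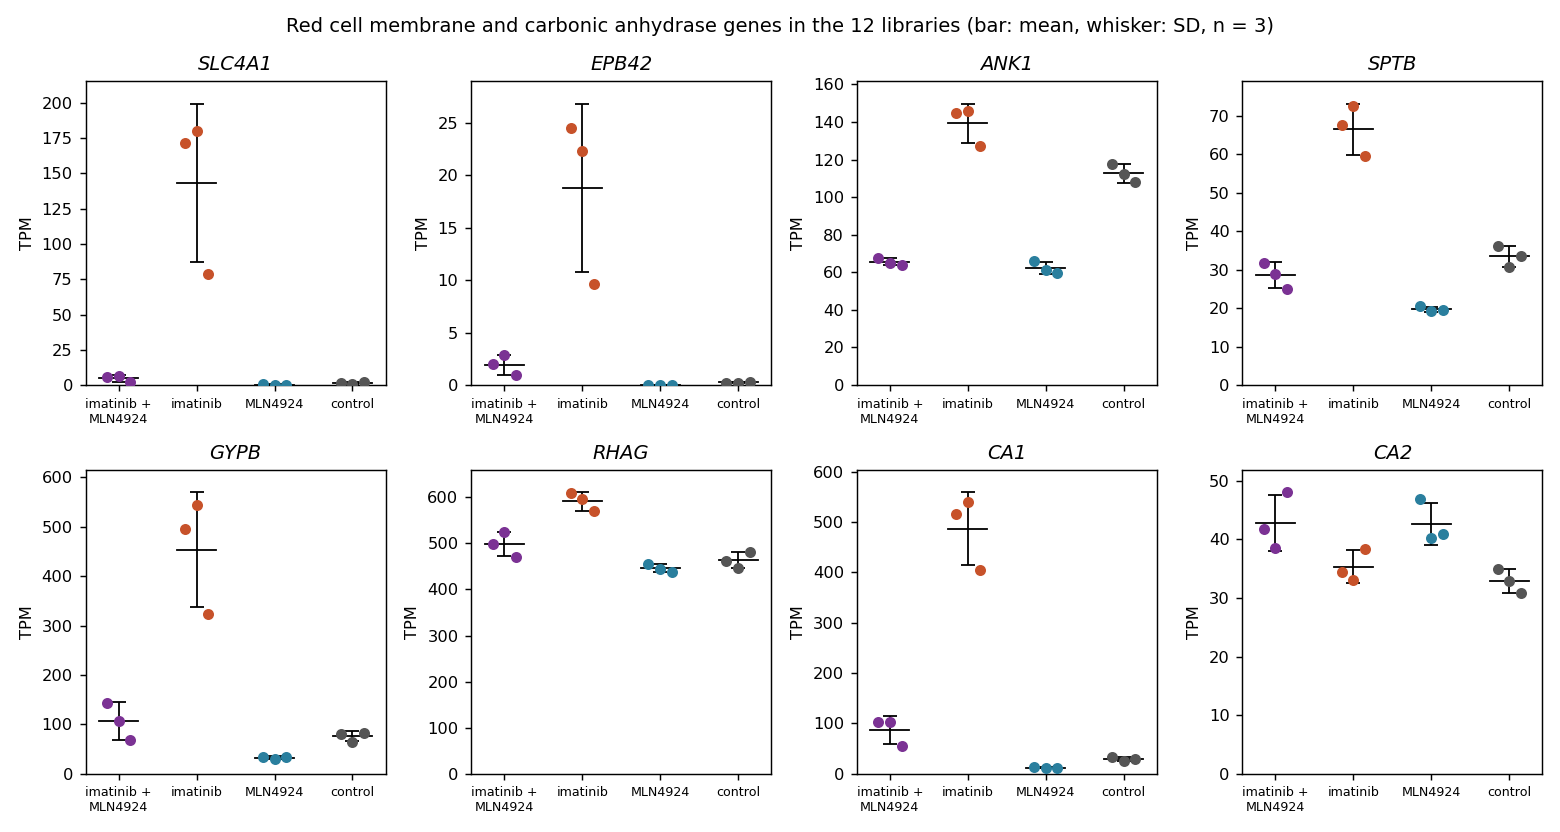
TPM of each of the 8 genes (vertical axis, linear and from 0) in the 3 libraries of each group, with imatinib + MLN4924, imatinib, MLN4924 and control from left to right. Points are libraries, the bar is the mean and the whisker is the SD. SLC4A1, EPB42, GYPB and CA1 stood highest in the imatinib libraries, whereas CA2 stayed between 30.9 and 48.1 TPM in all 12.

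SLC4A1 encodes band 3, the anion exchanger and the main membrane anchor of the skeleton. It was at 171.28, 180.13 and 78.51 TPM in the imatinib libraries, against 1.32, 1.01 and 2.13 TPM in the control libraries. Every imatinib library was far above every control library. The log2 fold change was 5.79 (SE 0.36, adjusted p = 1.77e-06), on the log2(TPM + 1) scale on which all fold changes here are given and which understates the change of a gene that is low in one group. In imatinib + MLN4924 libraries SLC4A1 was at 5.51, 6.59 and 2.04 TPM, which is below all imatinib libraries (log2 fold change -4.67, SE 0.36, adjusted p = 7.94e-06). By mean level SLC4A1 exceeded 94.92% of the genes tested in imatinib and 15.8% of them in control. In bulk RNA, more cells that express the gene and more RNA in each cell cannot be told apart, for this gene and for those that follow.

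EPB42 encodes protein 4.2, which binds band 3 and ankyrin on the inner face of the membrane. It was at 24.54, 22.27 and 9.65 TPM in the imatinib libraries, against 0.22, 0.24 and 0.33 TPM in the control libraries. The groups did not overlap, and the log2 fold change was 3.87 (SE 0.31, adjusted p = 5.5e-06). The combination held 1.97, 2.88 and 0.97 TPM, below all imatinib libraries (log2 fold change -2.71, SE 0.31, adjusted p = 9.37e-05). EPB42 reached 1 TPM in 5 libraries, all of them treated with imatinib, so it passed the filter only through the groups in which it is high and had to differ from the others. Its tests therefore say nothing about the set, and counts below leave it out or say that it is included. With no filter on low values, where it needed no such level to be tested, the adjusted p was 5.06e-05 for imatinib against control and 0.00059 for the combination against imatinib.

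ANK1 encodes ankyrin-1, the adaptor between band 3 and beta-spectrin. Its levels were 144.78, 146.05 and 127.29 TPM with imatinib, against 117.93, 112.25 and 108.03 TPM in control. The ranges lay apart by a narrow gap, and the log2 fold change was 0.30 (SE 0.07, adjusted p = 0.0029). With imatinib + MLN4924 it was at 67.61, 64.96 and 64.01 TPM, under the imatinib libraries and also under the control libraries (log2 fold change against imatinib -1.07, SE 0.07, adjusted p = 2.43e-06).

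SPTB encodes the beta chain of erythroid spectrin, which binds ankyrin. SPTB was at 67.54, 72.53 and 59.39 TPM in imatinib libraries, against 36.05, 30.55 and 33.61 TPM in control libraries. Each imatinib library was above each control library, with a log2 fold change of 0.97 (SE 0.10, adjusted p = 1.93e-05). The levels were 31.61, 28.92 and 24.98 TPM with imatinib + MLN4924, all under the imatinib libraries (log2 fold change -1.20, SE 0.10, adjusted p = 1.42e-05).

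GYPB encodes glycophorin B, a sialoglycoprotein that carries the S and s blood group antigens. It was at 495.49, 543.16 and 322.71 TPM with imatinib, against 80.86, 64.24 and 82.61 TPM in control, with no overlap. The log2 fold change was 2.54 (SE 0.25, adjusted p = 1.34e-05). The combination libraries held 143.9, 107.27 and 67.63 TPM, all under the imatinib libraries (log2 fold change -2.11, SE 0.25, adjusted p = 0.000103).

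RHAG encodes the Rh-associated glycoprotein, which the RhD and RhCE proteins need to reach the cell surface. It was the highest member in each of the 4 groups. Its levels were 499.29, 525.27 and 471.49 TPM with imatinib + MLN4924, 608.64, 595.5 and 569.67 TPM with imatinib, and 462.83, 445.99 and 482.05 TPM in control. The imatinib libraries stood above both other groups, by a log2 fold change of 0.35 against control (SE 0.05, adjusted p = 0.000237), and the combination stood below imatinib (log2 fold change -0.25, SE 0.05, adjusted p = 0.00377).

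CA1 encodes carbonic anhydrase 1, an abundant cytosolic enzyme of the mature red cell. It was at 516.04, 539.24 and 403.62 TPM with imatinib, against 32.95, 25.61 and 29.0 TPM in control. All 3 imatinib libraries were above all 3 control libraries, with a log2 fold change of 4.01 (SE 0.21, adjusted p = 1.02e-06). With imatinib + MLN4924 the levels were 103.55, 102.31 and 55.48 TPM (log2 fold change against imatinib -2.51, SE 0.21, adjusted p = 1.47e-05).

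CA2 encodes carbonic anhydrase 2, the faster of the cytosolic red cell isoenzymes and one that many other tissues use. CA2 was at 34.52, 33.0 and 38.43 TPM with imatinib, against 35.01, 32.99 and 30.92 TPM in control. The ranges overlapped, and the log2 fold change was 0.10 with a 95% interval of -0.12 to 0.31 (adjusted p = 0.431). With imatinib + MLN4924 it was at 41.8, 38.55 and 48.06 TPM, above the imatinib libraries (log2 fold change 0.27, SE 0.10, adjusted p = 0.0433). That call was lost without imatinib library 1 (adjusted p = 0.111) or 2 (0.145) and without imatinib + MLN4924 library 1 (0.0736) or 3 (0.161), and without library 3 of both imatinib groups it had an adjusted p of 0.0599.

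Leaving out EPB42, 6 of the other 7 genes rose with imatinib against control and none fell, where 26.3% of all genes tested rose and 27.5% fell (53.8% in either direction). Against imatinib, the combination was lower for those 6 genes, where 20.5% of all genes tested were lower, and higher for CA2, where 22.6% were higher (43% in either direction). The median log2 fold change of the 7 genes was 0.97 for imatinib against control and -1.20 for imatinib + MLN4924 against imatinib (1.75 and -1.65 with EPB42), and over all genes tested it was 0.02 and 0.00. The 2 comparisons share the imatinib libraries, so they are not independent. The members and the lists below were chosen with earlier results of these data known, so such counts describe them and are no test of a set. In both comparisons the erythroid marker sum and the mitochondrial share moved along with these 6 genes. Most of the erythroid sum came from the globin genes HBG1, HBG2 and HBZ, which averaged 11555, 23002 and 12761 TPM with imatinib. GATA1, also in that sum, did not rise against control (mean 191 TPM with imatinib, 196 TPM in control). The erythroid sum and the mitochondrial share were both higher in every imatinib library than in any control or combination library. The granulocyte and monocyte marker sum was lower in every imatinib library, but against the combination only narrowly (highest imatinib 18.7, lowest combination 18.72 TPM). Its markers did not move together. CD33 averaged 6.73 TPM with imatinib, 18.3 TPM in control and 12.46 TPM with the combination. AZU1 averaged 2.22, 0.44 and 1.19 TPM in the same order. The megakaryocyte marker sum was also higher in every imatinib library, but against control only narrowly (lowest imatinib 161.81, highest control 160.69 TPM). Its markers did not move together against control. TUBB1 was at 92.93, 101.36 and 74.81 TPM with imatinib and at 12.62, 10.24 and 10.18 TPM in control. GP1BB was at 71.34, 87.34 and 79.96 TPM with imatinib and at 130.94, 147.14 and 65.69 TPM in control. The part of these markers in the changes was not tested. Without library 3 of both imatinib groups these 6 genes, and EPB42, passed in the same direction in both comparisons.

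**Figure D2:**
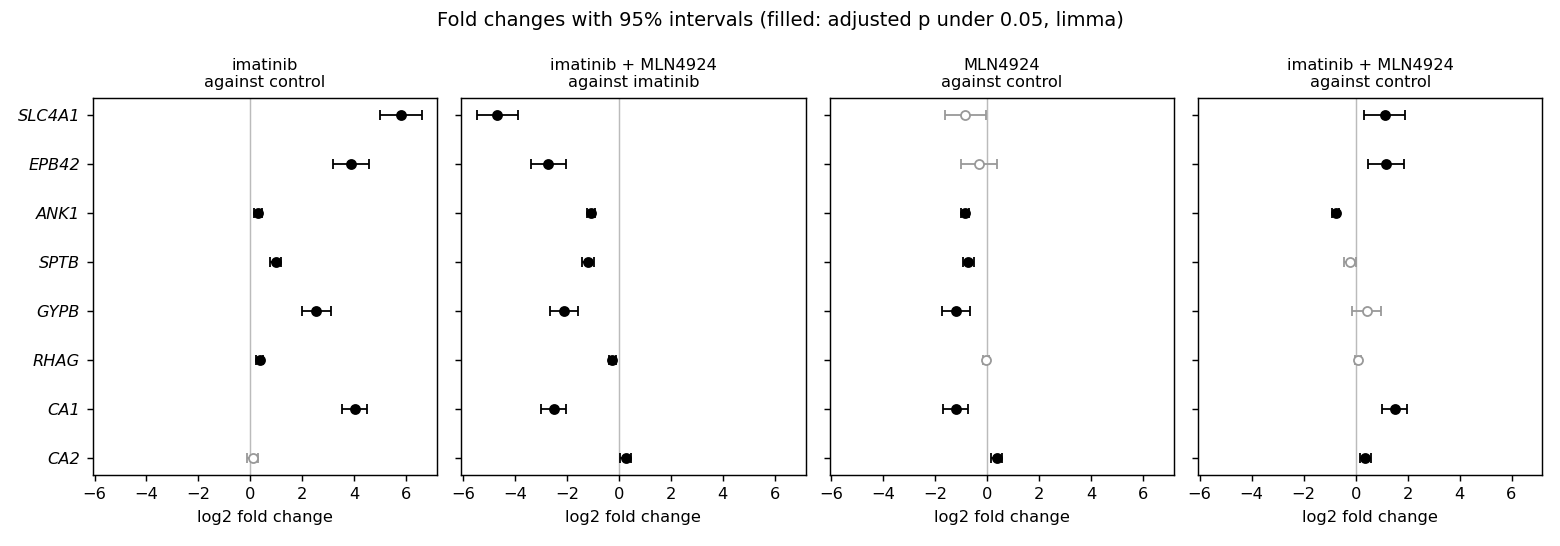
Log2 fold change of each gene with its 95% interval in 4 comparisons, on one horizontal scale, with a filled point for an adjusted p under 0.05. The filled points lay right of 0 for 7 genes, EPB42 with the limit of the filter among them, in imatinib against control and left of 0 for the same 7 in imatinib + MLN4924 against imatinib.

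MLN4924 alone lowered 4 members, where 7.11% of all genes tested fell. ANK1 was at 65.78, 61.42 and 59.84 TPM with MLN4924, against 117.93, 112.25 and 108.03 TPM in control (log2 fold change -0.84, SE 0.07, adjusted p = 2.45e-05). SPTB was at 20.44, 19.12 and 19.62 TPM with MLN4924, against 36.05, 30.55 and 33.61 TPM in control (log2 fold change -0.73, SE 0.10, adjusted p = 0.000836). The ranges of both skeleton genes lay well apart. GYPB was at 33.3, 29.56 and 34.42 TPM with MLN4924, against 80.86, 64.24 and 82.61 TPM in control (log2 fold change -1.20, SE 0.25, adjusted p = 0.00817). CA1 was at 13.74, 10.7 and 11.57 TPM with MLN4924, against 32.95, 25.61 and 29.0 TPM in control (log2 fold change -1.21, SE 0.21, adjusted p = 0.00345). Each of these MLN4924 libraries was below each control library.

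RHAG did not pass in this comparison, at 455.65, 445.35 and 438.43 TPM with MLN4924 against 462.83, 445.99 and 482.05 TPM in control (log2 fold change -0.05, 95% interval -0.17 to 0.06, adjusted p = 0.571). SLC4A1 was at 0.48, 0.3 and 0.31 TPM with MLN4924, all under the 1.32, 1.01 and 2.13 TPM of control, and EPB42 was at 0.05 TPM in one MLN4924 library and listed at 0 in the other 2, under the 0.22, 0.24 and 0.33 TPM of control. Neither passed on the log2(TPM + 1) scale, where the fold change was -0.84 for SLC4A1 (adjusted p = 0.152) and -0.31 for EPB42 (adjusted p = 0.571), and both passed with a pseudocount of 0.1, at -1.74 (adjusted p = 0.0232) and -1.65 (adjusted p = 0.0328). SLC4A1 also passed without library 3 of both imatinib groups (adjusted p = 0.00615) and when the fit was limited to the libraries compared (adjusted p = 0.0362). In that limited fit SLC4A1 met the filter only through the control libraries, in which it is higher. The call from that fit is therefore limited as those of EPB42 are. CA2 was the one member that rose, at 46.85, 40.32 and 40.95 TPM with MLN4924 against 35.01, 32.99 and 30.92 TPM in control (log2 fold change 0.36, SE 0.10, adjusted p = 0.028), where 7.36% of all genes tested rose (14.5% changed in either direction). The CA2 call was lost without control library 2 (adjusted p = 0.0757) or 3 (0.0872), without MLN4924 library 1 (0.0979), 2 (0.0504) or 3 (0.0571), and with no filter on low values (0.0575).

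Imatinib still raised part of the set when MLN4924 was present. Against MLN4924 alone, imatinib + MLN4924 was higher for EPB42 and for 4 of the other 7 members, and lower for none, where 7.73% of all genes tested were higher and 8.48% were lower (16.2% in either direction). The log2 fold change was 2.71 for CA1 (SE 0.21, adjusted p = 6.79e-05), 1.97 for SLC4A1 (SE 0.36, adjusted p = 0.00597) and 1.62 for GYPB (SE 0.25, adjusted p = 0.00243). For EPB42 it was 1.48 (SE 0.31, adjusted p = 0.011), a call lost without imatinib + MLN4924 library 2 (adjusted p = 0.051), and for SPTB it was 0.50 (SE 0.10, adjusted p = 0.00852). The 2 groups did not overlap for any of these genes. ANK1 did not pass (log2 fold change 0.07, 95% interval -0.08 to 0.22), nor did CA2 (0.00, 95% interval -0.21 to 0.21), and the ranges of both overlapped between the groups. RHAG was higher in every imatinib + MLN4924 library than in any MLN4924 library, but missed the threshold (log2 fold change 0.16, adjusted p = 0.0668), and it passed without imatinib + MLN4924 library 3 (log2 fold change 0.20, adjusted p = 0.0283).

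Tested directly, the effect of imatinib was smaller with MLN4924 than without it for EPB42 and for 3 of the other 7 members, where the difference was negative for 7.35% of all genes tested and positive for 9.06% (16.4% in either direction). For SLC4A1 the log2 fold change with imatinib was 1.97 with MLN4924 and 5.79 without it, a difference of -3.83 (SE 0.51, adjusted p = 0.00251). SLC4A1 was at 0.48, 0.3 and 0.31 TPM with MLN4924 alone, under the added 1 and under the 1.32, 1.01 and 2.13 TPM of control. The log2(TPM + 1) scale thus understates the effect with MLN4924 more than the effect without it, which enlarges this difference. For EPB42 it was 1.48 with MLN4924 and 3.87 without it, a difference of -2.40 (SE 0.44, adjusted p = 0.00796), which missed the threshold with a pseudocount of 0.1 (-1.57, adjusted p = 0.121) and is limited by the filter as above (adjusted p = 0.0266 with no filter). CA1 had 2.71 with MLN4924 and 4.01 without it, so that the difference was -1.30 (SE 0.30, adjusted p = 0.0185). Without imatinib library 2 the adjusted p of CA1 was 0.0518, and with no filter on low values it was 0.0521.

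SPTB had 0.50 with MLN4924 and 0.97 without it, a difference of -0.47 (SE 0.14) with an adjusted p of 0.0464. This SPTB call was lost without control library 2 (0.102) or 3 (0.0734), MLN4924 library 1 (0.0897), 2 (0.0723) or 3 (0.0804), imatinib library 1 (0.1) or 2 (0.115), or imatinib + MLN4924 library 2 (0.0675) or 3 (0.0892). It was also lost with a pseudocount of 0.1 (0.0532), with no filter on low values (0.0902) and with median-of-ratios scaling (0.063). The difference did not pass for ANK1 (-0.23, adjusted p = 0.118), GYPB (-0.92, adjusted p = 0.0933), RHAG (-0.19, adjusted p = 0.103) and CA2 (-0.09, adjusted p = 0.672). ANK1 passed without imatinib library 3 (-0.29, adjusted p = 0.0244), and GYPB passed without imatinib library 3 (-1.15, adjusted p = 0.0265) or imatinib + MLN4924 library 1 (-1.17, adjusted p = 0.0384). ANK1 and GYPB also passed without library 3 of both imatinib groups, with adjusted p of 0.0379 and 0.0141. 

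**Figure D3:**
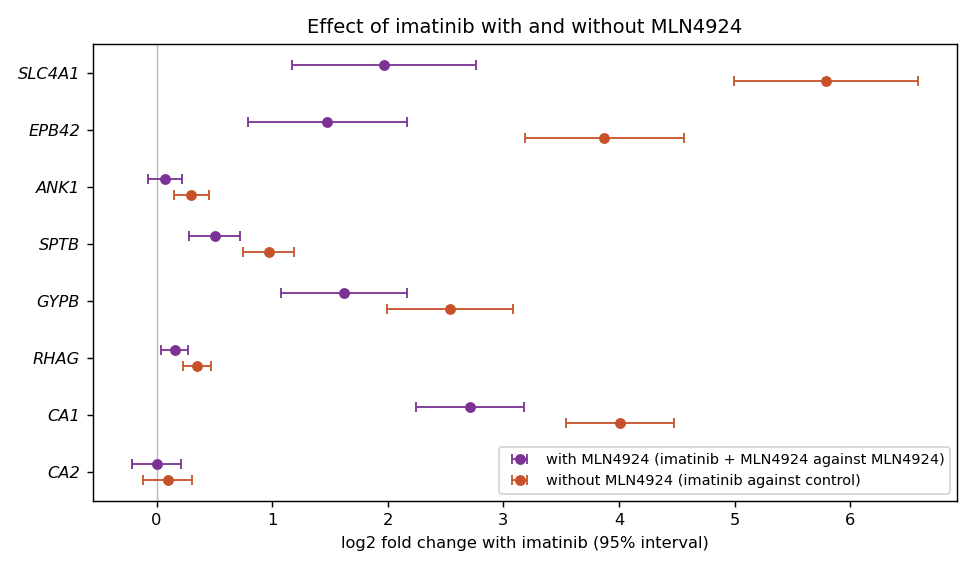
Log2 fold change with imatinib (horizontal axis, with its 95% interval) for each gene, with MLN4924 present (imatinib + MLN4924 against MLN4924, upper point) and absent (imatinib against control, lower point). The intervals lay apart for SLC4A1, EPB42, SPTB and CA1, and those of CA2 both included 0.

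Set against untreated cells, the combination left the members at mixed levels. CA1 was at 103.55, 102.31 and 55.48 TPM with imatinib + MLN4924, above the 32.95, 25.61 and 29.0 TPM of control (log2 fold change 1.5, SE 0.21, adjusted p = 0.000601). CA2 was likewise above control (log2 fold change 0.36, adjusted p = 0.0178), but not without control library 3 (adjusted p = 0.0625) or imatinib + MLN4924 library 3 (adjusted p = 0.0543). SLC4A1 passed with a log2 fold change of 1.12 (adjusted p = 0.041) and overlapping ranges, and EPB42 passed with 1.17 (adjusted p = 0.0186) and ranges apart. Both calls were lost without control library 1 (adjusted p = 0.0975 for SLC4A1 and 0.0507 for EPB42) or 2 (0.122 and 0.0513), and without imatinib + MLN4924 library 1 (0.128 and 0.0565) or 2 (0.147 and 0.0772). Leaving out EPB42, 3 of 7 were higher, against a background of 12.2% of all genes tested. ANK1 was the one member below control (log2 fold change -0.77, SE 0.07, adjusted p = 2.35e-05), where 13.9% of all genes tested were lower (26.2% in either direction). SPTB (-0.22, adjusted p = 0.125), GYPB (0.42, adjusted p = 0.239) and RHAG (0.10, adjusted p = 0.18) did not pass. GYPB passed without imatinib + MLN4924 library 3 (log2 fold change 0.71, adjusted p = 0.03), the library in which it was lowest, and RHAG passed without library 3 of both imatinib groups (0.14, adjusted p = 0.0399).

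The order of the members by level changed with imatinib. In the imatinib libraries RHAG averaged 591 ± 19.8 TPM, CA1 486 ± 72.5, GYPB 454 ± 116, SLC4A1 143 ± 56.3, ANK1 139 ± 10.5, SPTB 66.5 ± 6.6, CA2 35.3 ± 2.8 and EPB42 18.8 ± 8.0 TPM (SD, n = 3). The ranges of CA1 and GYPB overlapped, as did those of SLC4A1 and ANK1. In control the order was RHAG 464 ± 18.0, ANK1 113 ± 5.0, GYPB 75.9 ± 10.1, SPTB 33.4 ± 2.8, CA2 33.0 ± 2.0, CA1 29.2 ± 3.7, SLC4A1 1.49 ± 0.58 and EPB42 0.26 ± 0.06 TPM (SD, n = 3), with overlapping ranges for SPTB, CA2 and CA1 in turn. With imatinib + MLN4924, RHAG led at 499 ± 26.9 TPM, GYPB and CA1 overlapped at 106 ± 38.1 and 87.1 ± 27.4 TPM, and SLC4A1 and EPB42 were last with overlapping ranges at 4.71 ± 2.38 and 1.94 ± 0.96 TPM (SD, n = 3). In MLN4924 no neighbours in the order overlapped.

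Ratios taken within a library show which pairs of partners changed unequally, with no fit across genes. CA1 over CA2 was 2.48, 2.65 and 1.15 with imatinib + MLN4924, and 14.9, 16.3 and 10.5 with imatinib. The ratio was 0.293, 0.265 and 0.282 with MLN4924 alone, and 0.941, 0.776 and 0.938 in control. The 4 groups did not overlap, and each comparison had an exact two-sided permutation p of 0.1, the smallest that 3 libraries against 3 can give. CA1 exceeded CA2 in every library given imatinib, with or without MLN4924, and fell short of it in every library without imatinib.

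The skeleton genes SPTB and ANK1, whose products bind each other, rose unequally. SPTB over ANK1 was 0.467, 0.497 and 0.467 with imatinib, against 0.306, 0.272 and 0.311 in control, with no overlap (exact permutation p = 0.1, the smallest possible). It was 0.468, 0.445 and 0.39 with imatinib + MLN4924, overlapping imatinib, and 0.311, 0.311 and 0.328 with MLN4924, overlapping control. SPTB over SPTBN1, the beta-spectrin of other cell types, was 1.3, 1.37 and 1.0 with imatinib + MLN4924, 5.3, 5.63 and 3.61 with imatinib, and 1.26, 1.05 and 1.03 in control. The imatinib libraries were apart from both other groups in this ratio, and the MLN4924 libraries, at 0.641, 0.553 and 0.606, were below all of them. SLC4A1 over EPB42 was 2.8, 2.29 and 2.1 with imatinib + MLN4924, against 6.98, 8.09 and 8.14 with imatinib, and 6.0, 4.21 and 6.45 in control, so within these 3 groups the combination was lowest.

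**Figure D4:**
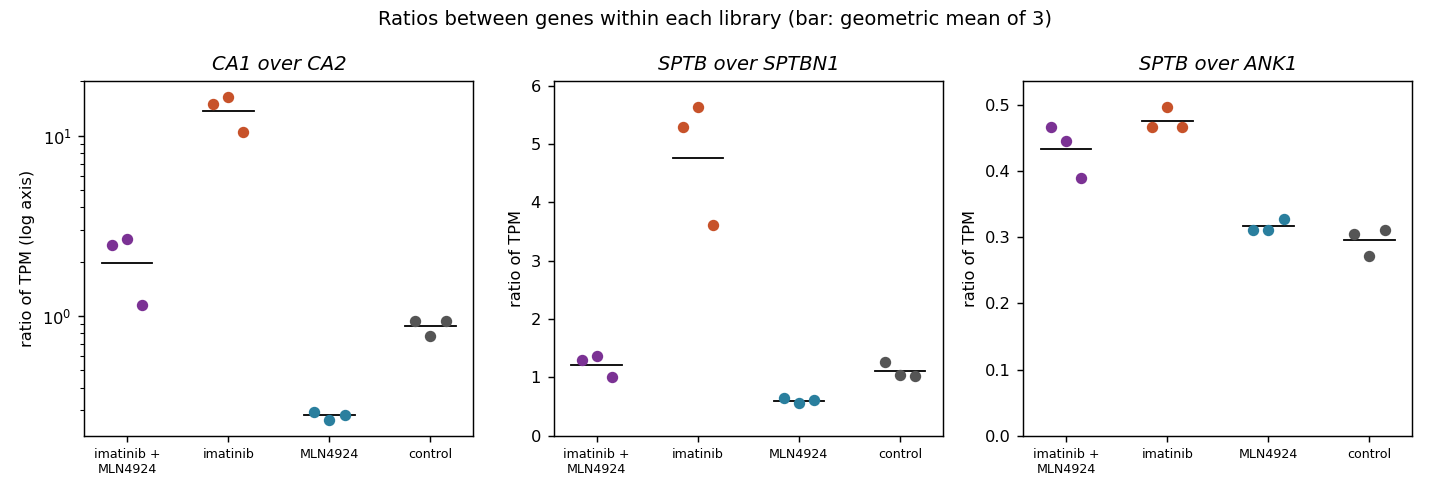
Ratio of TPM between 2 genes within each library, with imatinib + MLN4924, imatinib, MLN4924 and control from left to right, CA1 over CA2 on a log axis and the other 2 pairs on linear axes from 0. Points are libraries and the bar is the geometric mean of 3. CA1 over CA2 lay between 10.5 and 16.3 with imatinib and under 1 in control, SPTB over SPTBN1 was highest with imatinib, and SPTB over ANK1 was higher in both groups given imatinib than in the groups without it.

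The genes nearest in pattern were sought among tested genes with a symbol and a GENCODE entry. Members, pseudogenes and genes with a clone, locus or LINC name were left out of the search. For each member the 2 genes with the smallest root mean square difference of centred log2(TPM + 1) over the 12 libraries were taken. They were ESPN (0.51) and FAXDC2 (0.85) for SLC4A1, and ALAS2 (0.30), which starts heme synthesis in erythroid cells, and C17orf99 (0.30) for EPB42. For GYPB they were PKLR (0.21), the pyruvate kinase of red cells and liver, and PPOX (0.21), a late enzyme of heme synthesis. CA1 was nearest to FAXDC2 (0.25) and C17orf99 (0.46). ANK1 was nearest to TRPT1 (0.08) and TTLL11 (0.13), SPTB to KIFC2 (0.12) and BTBD2 (0.12), RHAG to COA5 (0.05) and CMAS (0.06), and CA2 to MAPKAPK2 (0.08) and CANT1 (0.08). Small differences come easily to a gene that varies little, as RHAG and CA2 do. Among the members themselves the 5 nearest pairs were CA2 with RHAG (0.29), ANK1 with SPTB (0.29), ANK1 with RHAG (0.41), RHAG with SPTB (0.48) and CA1 with EPB42 (0.53).

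Of 8 partners of the members in the band 3 and Rh complexes, 7 rose with imatinib and CD47 fell, where 26.3% of all genes tested rose and 27.5% fell, with a median log2 fold change of 1.69 beside 0.02 over all genes tested, and the same 7 were lower in imatinib + MLN4924 than in imatinib (20.5% of all genes tested) while CD47 was higher (22.6%). RHCE and RHD, the Rh antigens that assemble with RHAG, rose by a log2 fold change of 2.12 (adjusted p = 7.96e-07) and 1.71 (adjusted p = 1.03e-06), beside the 0.35 of RHAG, although these near-identical genes may trade reads. KEL, the Kell antigen, rose by 2.05 on the log2 scale (adjusted p = 4.81e-06), ICAM4, an adhesion protein, by 2.03 (adjusted p = 6.45e-06), and GYPE, another glycophorin gene, by 1.68 (adjusted p = 0.000102). CD47, which restrains uptake by macrophages, fell by 0.46 on the log2 scale (log2 fold change -0.46, adjusted p = 0.00805).

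Of 11 further genes of the spectrin skeleton, 6 rose with imatinib and TPM3 fell, so that 7 of 11 changed beside 53.8% of all genes tested, and the median was 0.32. TMOD1, which caps actin filaments, rose by 1.57 on the log2 scale (adjusted p = 2.86e-06), ADD2, beta-adducin, by 1.36 (adjusted p = 5.82e-05), and DMTN, the actin bundler dematin, by 1.28 (adjusted p = 3.88e-05). TPM3, a tropomyosin of many cell types, had a log2 fold change of -0.58 (adjusted p = 0.000179). In the combination against imatinib, 6 of the 11 were lower and ACTB, TPM1 and TPM3 were higher, beside 43% of all genes tested in either direction.

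Of 20 other red cell surface and transport genes, 18 passed the filter. ART4 did so only through the imatinib libraries, at 1.55, 1.34 and 2.07 TPM against 0.06, 0.03 and 0 TPM in control, and is left out of the counts. Of the other 17, 14 rose with imatinib and AQP3 and STOM fell, beside 26.3% and 27.5% of all genes tested, and the median was 0.83. AQP1, the water channel of the red cell, was at 68.07, 68.38 and 34.67 TPM with imatinib, against 4.12, 2.81 and 2.32 TPM in control (log2 fold change 3.79, adjusted p = 3.98e-06), and its effect with MLN4924 was smaller by 2.87 (interaction -2.87, adjusted p = 0.00328). BCAM rose by 1.84 on the log2 scale (adjusted p = 2.42e-05), KCNN4, a calcium-gated potassium channel, by 1.73 (adjusted p = 3.13e-05), ERMAP by 1.58 (adjusted p = 3.76e-06), ABCG2 by 1.45 (adjusted p = 0.000203), the glucose carrier SLC2A1 by 1.32 (adjusted p = 0.000258), SMIM1 by 1.24 (adjusted p = 5.63e-05) and ABCB6 by 1.2 (adjusted p = 4.93e-06). AQP3, an aquaglyceroporin, was at 17.52, 16.38 and 20.95 TPM with imatinib, against 62.36, 48.27 and 48.99 TPM in control (log2 fold change -1.49, adjusted p = 0.00109), and it was lower still with imatinib + MLN4924. STOM, the membrane protein stomatin, had a log2 fold change of -0.98 (adjusted p = 0.000133). SLC14A1 and ACKR1 did not pass the filter.

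Of 13 other carbonic anhydrases, 5 passed the filter, CA7 only through libraries without imatinib, at 0.24, 0.44 and 0.48 TPM with imatinib against 1.01, 1.74 and 1.03 TPM in control. Of the remaining 4, none rose with imatinib and CA8 fell (log2 fold change -0.33, adjusted p = 0.000586), where 26.3% of all genes tested rose and 27.5% fell, and 4 genes are too few to set against those shares. CA8, a relative without catalytic activity, was the highest of them at 37.72, 40.32 and 39.43 TPM with imatinib against 52.2, 49.25 and 47.39 TPM in control, so it stood near CA2 in level. CA5B, CA11 and CA13 did not pass, at -0.03 (adjusted p = 0.925), 0.01 (adjusted p = 0.966) and -0.11 (adjusted p = 0.484).

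The members have relatives that work in other tissues. Of 24 such genes 13 passed the filter, and with imatinib 3 rose (EPB41L1, TGM1 and TGM2), 6 fell (EPB41L2, EPB41L3, SLC4A2, SLC4A7, SPTAN1 and SPTBN1), and the median was -0.01. The share that rose was near the 26.3% of all genes tested, and 27.5% of all genes fell. SLC4A7, a sodium bicarbonate carrier related to band 3, was at 2.57, 2.61 and 5.16 TPM with imatinib, against 6.54, 10.27 and 9.04 TPM in control (log2 fold change -1.14, adjusted p = 0.000929). SPTBN1 was at 12.74, 12.88 and 16.45 TPM with imatinib, against 28.67, 29.12 and 32.62 TPM in control (log2 fold change -1.06, adjusted p = 1.41e-05). TGM1, a transglutaminase of the family to which EPB42 belongs by sequence, rose by 1.04 on the log2 scale (adjusted p = 0.00305). SLC4A2, the anion exchanger of most other cells, was at 89.36, 93.68 and 102.74 TPM with imatinib against 183.73, 159.57 and 148.19 TPM in control, so it was above SLC4A1 in every control library and below it in 2 of the 3 imatinib libraries.

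**Figure D5:**
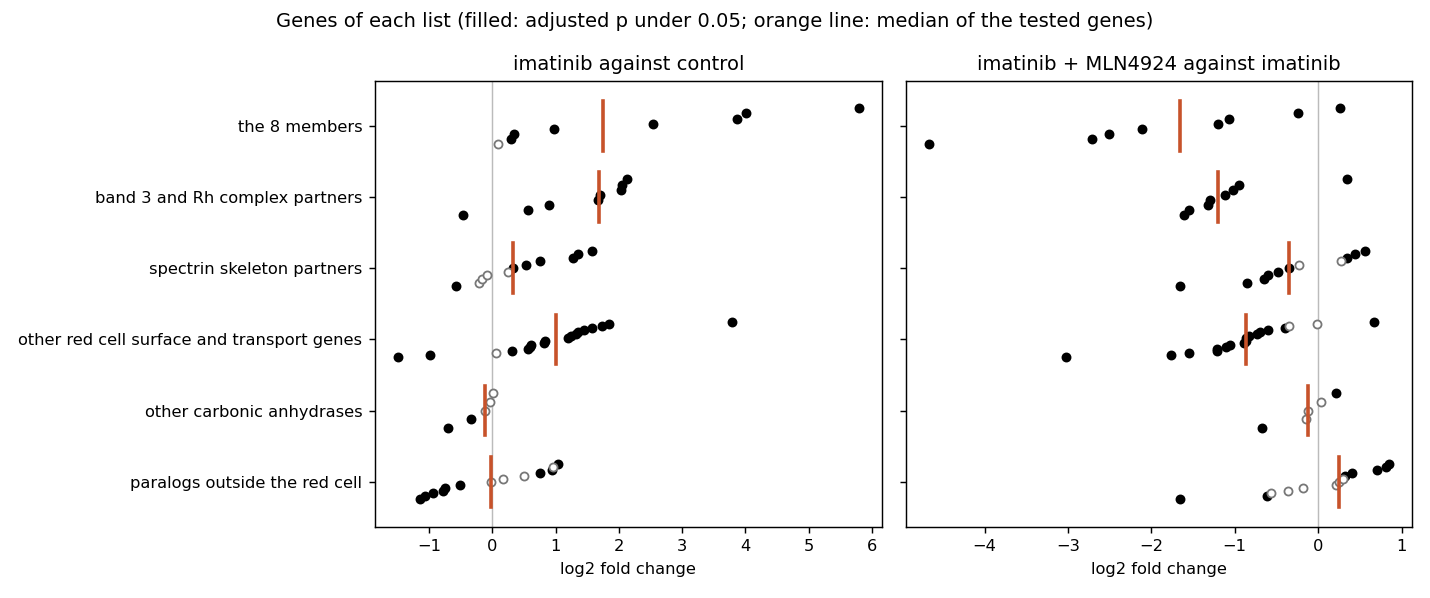
Log2 fold change (horizontal axis) of each tested gene of the 8 members and of 5 lists of related genes, for imatinib against control (left) and imatinib + MLN4924 against imatinib (right). Filled points passed at an adjusted p under 0.05, and the orange line is the median of the tested genes of a list. The medians in imatinib against control were 1.75 for the members (0.97 without EPB42), 1.69 for the band 3 and Rh partners and -0.01 for the relatives outside the red cell.

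Of 9 transcription factors of red cell precursors 8 passed the filter, and 7 rose with imatinib, where 26.3% of all genes tested rose. TAL1, which binds E-boxes with its partners, rose by a log2 fold change of 1.33 (adjusted p = 6.11e-06), LMO2 by 1.13 (adjusted p = 1.18e-05) and GFI1B by 1.0 (adjusted p = 6.43e-06). KLF1, which binds CACCC boxes, was at 282.73, 275.35 and 246.43 TPM with imatinib, against 164.45, 147.68 and 129.66 TPM in control (log2 fold change 0.86, adjusted p = 0.000154), and it was lower with imatinib + MLN4924 than with imatinib (-1.05, adjusted p = 0.000108). GATA1, the main factor of the GATA motif in red cells, was at 180.76, 192.29 and 200.48 TPM with imatinib, against 205.91, 195.0 and 188.56 TPM in control, with overlapping ranges (log2 fold change -0.04, 95% interval -0.22 to 0.14, adjusted p = 0.709). Whether these factors act on the members was not measured.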

How the data were processed

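Adapter and quality trimming by the authors used fastp, and HISAT2 placed the reads on hg38. StringTie then assembled transcripts, and the deposited unit is TPM per gene, which is already scaled to the library total and keeps no depth. The submitters' processing notes also name featureCounts and GRCh38. PolyA RNA was sequenced. From these TPM values, log2(TPM + 1) was taken for the 15478 Ensembl genes that reached 1 TPM in 3 or more libraries and fitted with limma 3.58.1 (trend) in R 4.3.3, with 1 coefficient per group over all 12 libraries. The Benjamini-Hochberg adjustment covered all genes tested (threshold 0.05), and the fit was checked on simulated data. Assembled loci were left out. Ratios were compared with exact permutation tests (scipy 1.17.1). Positions came from GENCODE release 44 on GRCh38, the build the submitters name, and promoter windows from RefSeq.

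The 8 members, the lists of related genes and the cell type markers were chosen with earlier results of these data known. Some genes of the lists are not reported here and are not counted in them. All members are named. From each list, genes past the threshold with a log2 fold change of at least 1 in size with imatinib are named, or the 3 with the largest changes, and further genes where a count is 5 or fewer. For each member the 2 genes nearest in pattern are named. KLF1 and SLC4A2 lie outside the rule and were chosen after their values were seen. Alternatives were a pseudocount of 0.1, no filter, a filter of 5 TPM, median-of-ratios scaling, a replicate block, only the libraries compared and each library left out.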

Additional observations from a re-analysis of the deposited data

Results flagged for a closer look

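In the interaction test of limma (with MLN4924 minus without), the effect of imatinib differed for EPB42 and for 3 of the other 7 genes. Over all genes tested it passed as negative for 7.35% and in either direction for 16.4%. The difference in log2 fold change was -3.83 for SLC4A1 (adjusted p = 0.00251), -2.40 for EPB42 (adjusted p = 0.00796), -1.30 for CA1 (adjusted p = 0.0185) and -0.47 for SPTB (adjusted p = 0.0464). SLC4A1 kept its call in every alternative tried, though the added 1 enlarges its difference, as given above. EPB42, which passed the filter only through libraries given imatinib, lost it with a pseudocount of 0.1, CA1 with no filter and without imatinib library 2, and SPTB in several alternatives.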

How the results depend on the processing

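Counts of members in this section include EPB42, with the limit of the filter given above. No count of members past the threshold changed by more than 1.5 times in imatinib against control (7), imatinib + MLN4924 against imatinib (8), MLN4924 against control (5) and imatinib + MLN4924 against MLN4924 (5). For imatinib + MLN4924 against control the count was 5, and it was 3 with no filter and 3 with only the libraries compared. For the interaction it was 4, and 2 with a pseudocount of 0.1 and 2 with no filter. With each library left out in turn these counts ran from 3 to 5 for imatinib + MLN4924 against control and from 2 to 6 for the interaction. Genes past the threshold in imatinib + MLN4924 against MLN4924 numbered 2508, with 1515 with no filter, 3998 without library 3 of both imatinib groups and 1028 to 3215 with each library left out. MLN4924 against control gave 2239 genes, and 1364 to 1810 with each library left out. The interaction gave 2540 genes, 1398 with no filter, and 1017 to 3878 with each library left out. The cause of these shifts was not tested. The log2 fold change of CA2 in imatinib + MLN4924 against MLN4924, 0.00, changed sign without single libraries, from a lowest value of -0.084 to a highest of 0.0714 (-0.0383 without MLN4924 library 2, -0.0274 without MLN4924 library 3), and it was -0.084 without library 3 of both imatinib groups, an alternative chosen after seeing the data. With median-of-ratios scaling the median log2 fold change over all genes ran from -0.0113 to 0.0142 over the comparisons. With only the libraries compared, EPB42 was not tested in 3 comparisons, having too few libraries at 1 TPM.

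Replicate numbers gave no general pairing of the libraries, since deviations of same-numbered libraries correlated at -0.06 to 0.19 over 18 pairs. The 1 pair that exceeded 0.1 was imatinib library 3 with imatinib + MLN4924 library 3 (0.19), the libraries lowest for most members. Pairs with different numbers reached at most 0.0729. Why these 2 libraries deviated alike was not tested. A replicate block changed no call of a member, and the counts of members stayed at 7, 8, 5, 5, 5 and 4, with 8260 genes for imatinib against control, 6606 for imatinib + MLN4924 against imatinib, 2547 for imatinib + MLN4924 against MLN4924, 2205 for MLN4924 against control, 4024 for imatinib + MLN4924 against control and 2553 for the interaction. TPM keeps no depth, so what low levels of EPB42 and SLC4A1 can show is limited by an unknown number of reads.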
